A study of Mus musculus with 6 samples.

Results

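Thiamine (vitamin B1) uptake and handling was examined through 3 mouse genes, Slc19a2, Slc19a3 and Thtpa, of the 38561 Ensembl genes counted in small intestinal mucosa. The 3 genes were chosen by name, as a group that earlier results of this same comparison had brought up, so that their levels are given here as a description and no p-value is attached to them. All 3 were among the 16425 genes that passed a filter on low counts. Libraries were made from pooled mucosal RNA of 8- to 12-week-old C57BL/6J mice of both sexes, with 3 mice per pool by the sample labels and 3 pools per genotype. In Rbm47-IKO mice a constitutive Villin-Cre transgene, which is active in the epithelium of small and large intestine, deletes the floxed gene of the RNA-binding protein RBM47, and the other cells of the mucosa keep it. The results of the study name jejunal mucosa for these libraries, and its methods allow slightly more mice per pool. The controls are named wild type (wt) in the labels and Rbm47 fl/fl mice in the methods of the study. The libraries held between 31560320 and 38951830 counted reads.

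Thiamine is not made by mammals and enters the enterocyte through 2 carriers of the SLC19 family, THTR-1 (Slc19a2) and THTR-2 (Slc19a3). Inside the cell it is converted to thiamine diphosphate, the cofactor of pyruvate dehydrogenase, 2-oxoglutarate dehydrogenase, the branched-chain keto acid dehydrogenase and transketolase. A small part becomes thiamine triphosphate, which thiamine triphosphatase (Thtpa) hydrolyses back to the diphosphate. The group was labelled as uptake and activation. Both carriers take up the vitamin, whereas Thtpa acts on the triphosphate.

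The genotype labels were first read against the targeted gene. Rbm47 (ENSMUSG00000070780) had a normalised read count (CPM, the count relative to library size, scaled by the trimmed mean of M-values, TMM) of 602.7, 624.6 and 619.8 in the pools labelled Rbm47-IKO and 459.8, 449.9 and 472.1 in the control pools. The targeted gene was therefore not lower where the label says it is deleted (log2 fold change of labelled over control pools, log2FC, 0.42 ± 0.10, standard error, SE; edgeR adjusted p = 0.0751). It passed as higher with DESeq2 (adjusted p = 0.00105) and with edgeR on library size alone (adjusted p = 0.0473). These counts cover the whole gene, and the part that the floxed allele removes is not given in the sources used here. Every direction below is stated for the pools as labelled. Whether the labels were exchanged was not tested, and an exchange would turn each direction. By other assays the study reports negligible Rbm47 mRNA and protein in the intestine of Rbm47-IKO mice, unlike the counts above. It also reports more goblet cells, lower Cck and Gip mRNA and more crypt cells stained for proliferation in these mice. In the labelled pools the goblet marker sum was higher (mean 23210 against 17920 CPM), but most of it was Fcgbp, and 0 of the 5 markers passed with edgeR. Muc2 and Tff3, which the study reports as higher by qPCR, overlapped between the groups. Their log2FC values were 0.25 and 0.06 (edgeR adjusted p = 0.504 and 0.944). Cck and Gip had log2FC values of -1.24 and -0.76 in the labelled pools (edgeR adjusted p = 0.101 and 0.087). The proliferation markers Pcna, Mki67 and Top2a had log2FC values of -0.46, -0.20 and -0.12 (edgeR adjusted p = 0.165, 0.793 and 0.902). Mki67 and Top2a overlapped between the groups. These are RNA levels of whole mucosa, not stained cells per crypt. Nothing about the labels is read from the marker values given here. Defining genes of enterocytes were abundant in all pools, with 838 CPM or more for each of 10 markers. Their sum was 53840 to 59870 CPM in the labelled pools and 56790 to 59320 CPM in controls, although single markers differed, with 5 of the 10 at a positive and 5 at a negative log2FC and 5 at an unadjusted edgeR p under 0.05. Apoa4, an apolipoprotein, had 3198 to 3548 CPM in labelled pools and 4295 to 8088 in controls (edgeR adjusted p = 0.0802). In bulk mucosa, fewer cells of a type cannot be told apart from less RNA per cell.

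Slc19a2 and Slc19a3 both lie on mouse chromosome 1, and Thtpa lies on chromosome 14. In the build GRCm38, which the submitters' processing notes name, Slc19a2 (ENSMUSG00000040918) spans chr1:164249046-164265385 on the plus strand with 6 merged exons. Slc19a3 (ENSMUSG00000038496) spans chr1:83012523-83038448 on the minus strand with 8. Thtpa (ENSMUSG00000045691) spans chr14:55094835-55098986 on the plus strand with 2, and GENCODE places its start slightly upstream of that. The windows of 250 bases just upstream of their starts are shown as a description, and those of the 2 carriers differ. Whether this bears on their levels was not tested. Sequences are from RefSeq (GRCm38.p6), read 5′ to 3′ on the strand of the gene. Capitals mark GGGCGG, the core of the GC box that Sp1 binds, CACCC, a core bound by Klf4, and ACGTG, the core of the hypoxia response element of Hif1a, each on either strand.
Slc19a2, chr1:164248796-164249045, plus strand: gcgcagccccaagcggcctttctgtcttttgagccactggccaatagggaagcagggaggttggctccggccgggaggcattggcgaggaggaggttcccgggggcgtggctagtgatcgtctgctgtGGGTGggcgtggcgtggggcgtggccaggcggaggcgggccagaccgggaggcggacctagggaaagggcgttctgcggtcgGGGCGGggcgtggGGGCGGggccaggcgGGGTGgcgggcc
Slc19a3, chr1:83038449-83038698, minus strand: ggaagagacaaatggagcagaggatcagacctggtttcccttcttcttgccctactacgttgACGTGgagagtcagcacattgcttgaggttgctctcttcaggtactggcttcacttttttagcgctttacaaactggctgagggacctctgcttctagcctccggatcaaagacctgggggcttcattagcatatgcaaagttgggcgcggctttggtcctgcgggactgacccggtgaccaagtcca
Thtpa, chr14:55094534-55094783, plus strand: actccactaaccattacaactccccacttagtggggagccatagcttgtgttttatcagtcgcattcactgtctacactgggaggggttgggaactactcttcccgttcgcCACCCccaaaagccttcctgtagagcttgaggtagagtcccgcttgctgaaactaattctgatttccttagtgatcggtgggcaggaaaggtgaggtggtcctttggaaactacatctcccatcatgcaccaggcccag

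The Slc19a2 window was rich in G and C, with a GC content of 73.2%, against 52.8% for Slc19a3 and 51.2% for Thtpa. It held 2 matches to GGGCGG and 2 to CACCC, and no match to ACGTG. The Slc19a3 window held 1 ACGTG and neither of the other motifs, and the Thtpa window held 1 CACCC only. Over 32817 upstream windows of the same length, GGGCGG was present in 32.7%, CACCC in 52% and ACGTG in 16.6%. These matches describe the letters of the windows and are no evidence of binding. The factors themselves were measured in the same libraries. Hif1a, the oxygen-regulated subunit of HIF-1, was higher in each labelled pool (187.1 to 214.5 CPM) than in each control pool (104.1 to 167.0 CPM), but did not pass the test (log2FC 0.53 ± 0.18 SE; edgeR adjusted p = 0.177). Klf4 and Sp1 did not pass it either, with log2FC values of 0.27 and -0.17 (edgeR adjusted p = 0.416 and 0.53).

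Slc19a2, the more abundant of the carriers, was counted 910, 956 and 902 times in the pools labelled Rbm47-IKO and 461, 670 and 834 times in the control pools. As TMM-scaled CPM these were 26.3, 25.2 and 27.6 against 13.6, 17.7 and 22.9. The labelled pools lay close together and all above the controls, whereas the controls were spread widely, with pool 1 lowest and pool 3 nearest to the labelled pools. The mean was 26.4 ± 1.2 CPM (SD, n = 3 pools) against 18.0 ± 4.68 CPM (SD, n = 3), which gave a log2FC of 0.55 ± 0.19 (SE). The size of this difference turned on the controls, since it was 0.379 without control pool 1 and 0.761 without control pool 3.

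Slc19a3, the carrier with the higher affinity for thiamine, was counted 90, 111 and 123 times in the labelled pools and 68, 176 and 243 times in controls. As CPM the values were 2.60, 2.93 and 3.77 against 2.0, 4.64 and 6.67. The groups overlapped, because control pool 1 was the lowest of all 6 libraries while the other controls were the highest. The mean of 3.10 ± 0.60 CPM (SD, n = 3) in the labelled pools and 4.44 ± 2.34 CPM (SD, n = 3) in controls gave a log2FC of -0.52 ± 0.42 (SE), an error nearly as large as the difference. Without control pool 3 the value shrank to -0.0959, and without control pool 1 it was -0.869, so that single control libraries set its size.

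**Figure D1:**
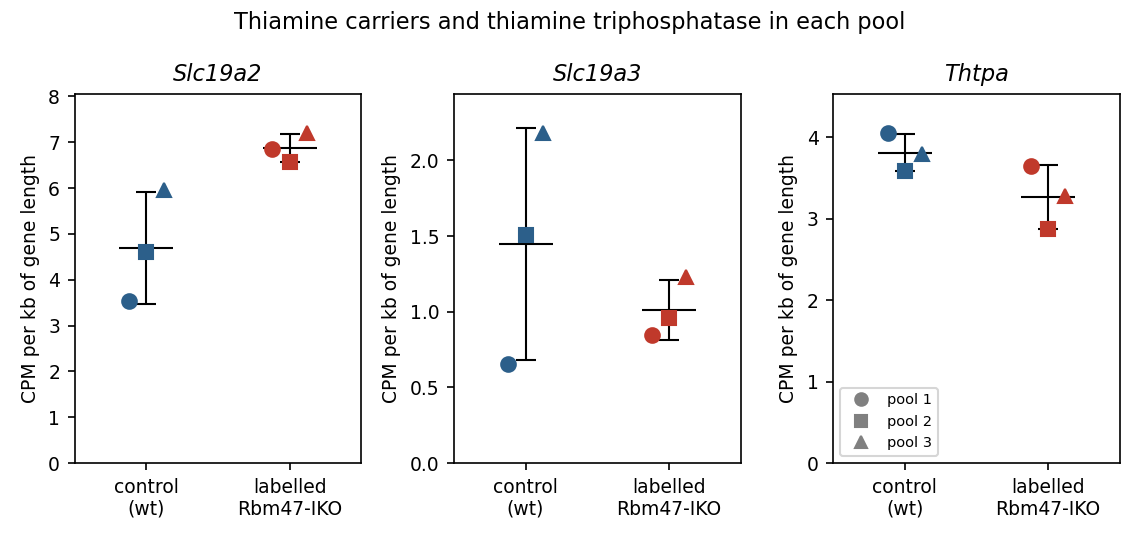
Normalized CPM per kilobase of gene length (vertical axes, each from 0) of Slc19a2, Slc19a3 and Thtpa in the control pools (blue) and the pools labelled Rbm47-IKO (red), with marker shape for the pool number and bars for the mean ± SD of 3 pools. The labelled pools of Slc19a2 lie between 6.58 and 7.20, all above its controls at 3.53 to 5.96, whereas the genotypes overlap for Slc19a3 and Thtpa.

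Thtpa was counted 351, 302 and 298 times in the labelled pools and 383, 379 and 384 times in controls. As CPM the values were 10.1, 7.97 and 9.13 against 11.3, 9.99 and 10.5. Labelled pool 1 lay above control pool 2, so that the groups overlapped by that pool alone. The mean was 9.08 ± 1.08 CPM (SD, n = 3) against 10.6 ± 0.641 CPM (SD, n = 3), and the log2FC was -0.22 ± 0.15 (SE). The 3′ end of Thtpa shares 409 exonic bases, 14.7% of its counted length, with Ap1g2 on the opposite strand, which encodes a subunit of a clathrin adaptor. Whether the counting used strand is not given in the sources used here, and without strand reads of that stretch cannot be assigned to either gene. Ap1g2 itself had 1628 to 1852 counts in the labelled pools and 1775 to 2016 in controls (log2FC -0.0544, edgeR adjusted p = 0.859).

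Of the 3 genes, Slc19a2 alone had every labelled pool above every control pool, and none had every labelled pool below. Over all genes tested, 11.7% had all labelled pools above and 11.6% all below. As the genes were picked with this comparison in view, nothing is read from these shares.

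Levels were then compared per kilobase of gene length. In the controls the order by mean CPM per kilobase was Slc19a2 (4.70 ± 1.22), Thtpa (3.81 ± 0.23) and Slc19a3 (1.45 ± 0.76; SD, n = 3 pools each). The ranges of Slc19a2 (3.53 to 5.96) and Thtpa (3.59 to 4.05) overlapped, and Slc19a3 lay below both in every pool. In the labelled pools the order was the same, with Slc19a2 at 6.87 ± 0.31, Thtpa at 3.27 ± 0.39 and Slc19a3 at 1.01 ± 0.20 (SD, n = 3 pools each), and neighbours did not overlap.

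Within each library the ratio of the carriers does not depend on scaling between libraries. Slc19a2 exceeded Slc19a3, both per kilobase, by 8.07-, 6.88- and 5.86-fold in the labelled pools and by 5.41-, 3.04- and 2.74-fold in controls. Every labelled pool was above every control pool, although labelled pool 3 and control pool 1 were close. The 2 genes had opposite signs in this same comparison, which favours such a separation, and Slc19a3 had only 68 to 243 counts per pool. How often ratios of other gene pairs separate was not computed, so nothing is read from it. The sum of both carriers was 7.70, 7.54 and 8.43 CPM per kilobase against 4.18, 6.11 and 8.14, and here the groups overlapped. The carriers are paralogs, but the longest stretch that their annotated transcripts share exactly was 20 bases.

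**Figure D2:**
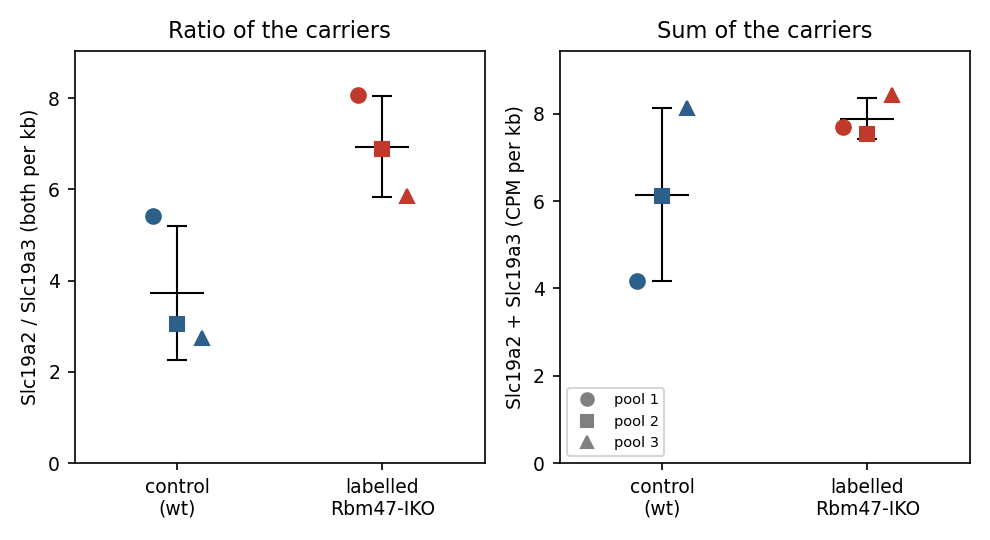
Ratio (left, Slc19a2 divided by Slc19a3, both per kilobase) and sum (right, CPM per kilobase) of the thiamine carriers in each control pool (blue) and each pool labelled Rbm47-IKO (red), with marker shape for the pool number and bars for the mean ± SD of 3 pools. The ratios of 5.86 to 8.07 in the labelled pools lie above the 2.74 to 5.41 of the controls, and the sums overlap.

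Of 22 other thiamine genes, 18 had enough counts to be tested. Akp3 and Bckdha passed at an edgeR adjusted p of 0.05 or less, both higher, and 0 passed as lower. Over all genes tested 2.70% passed, 1.45% higher and 1.25% lower. An unadjusted edgeR p under 0.05 was found for 5 of the 18, and for 16.8% of all genes. DESeq2 called 4 of the 18, which were Akp3, Bckdha, Dbt and Slc44a4, and 7.57% of all genes. The median log2FC of the 18 was 0.128, against -0.00586 over all genes tested. Akp3, an alkaline phosphatase of the brush border, where such enzymes free thiamine from its dietary phosphates, had 8.93, 8.48 and 24.8 CPM in the labelled pools against 0.941, 2.53 and 2.47 in controls, and rose (log2FC 2.82 ± 0.54 SE; edgeR adjusted p = 0.0424). Labelled pool 3 was the highest by far, and without it the log2FC was 2.13 (edgeR adjusted p = 0.0826). Its paralog Alpi had 1057 ± 50.8 CPM (SD, n = 3) in the labelled pools and 1049 ± 219.6 CPM (SD, n = 3) in controls, which is far above the 14.1 ± 9.29 CPM of Akp3, and did not pass (log2FC 0.0111, edgeR adjusted p = 0.985). The treatment of multi-mapping reads is not given in the sources used here, so counts of these paralogs are uncertain where their sequences match. Bckdha, a subunit of the branched-chain keto acid dehydrogenase that binds thiamine diphosphate, rose from 16.3 to 20.7 CPM in the control pools to 29.3 to 33.7 CPM in the labelled pools (log2FC 0.72 ± 0.13 SE; edgeR adjusted p = 0.0365). When single pools were left out, Akp3 passed 0 times of 6 and Bckdha 1 time, without control pool 2 (edgeR adjusted p 0.059 to 0.136 for Akp3 and 0.0401 to 0.214 for Bckdha). Over all 17 alternatives Akp3 passed in 8 and Bckdha in 9.

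The remaining thiamine diphosphate enzymes did not pass the test. Pdha1, of pyruvate dehydrogenase, had 111.0 to 122.2 CPM in the labelled pools and 133.9 to 162.7 CPM in controls, without overlap (log2FC -0.36, edgeR adjusted p = 0.146). Ogdh, of 2-oxoglutarate dehydrogenase, was the most abundant of these enzymes per kilobase, with 254.4 ± 14.4 CPM per kilobase in labelled pools and 224.7 ± 9.79 in controls (SD, n = 3; log2FC 0.18, edgeR adjusted p = 0.508). Transketolase (Tkt) had a log2FC of 0.15 (edgeR adjusted p = 0.696). The 5 partner subunits, which share the dehydrogenase complexes but do not bind the cofactor, had 0 calls with edgeR and 1 unadjusted p under 0.05. That was Dbt of the branched-chain complex, with 5.07 to 6.88 CPM in labelled pools and 9.12 to 12.1 in controls (log2FC -0.78 ± 0.19 SE; edgeR adjusted p = 0.0774), so that Bckdha and Dbt of the same complex had opposite signs. DESeq2 called Dbt (adjusted p = 0.00932).

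Other proteins that move thiamine or its phosphates had 0 calls among the 2 tested with edgeR, and 1 had an unadjusted p under 0.05. This was Slc44a4, a carrier of thiamine diphosphate best known from the colon, with 270.3 to 340.1 CPM in labelled pools and 185.7 to 247.5 in controls (log2FC 0.51 ± 0.15 SE; edgeR adjusted p = 0.121). It passed with DESeq2 (adjusted p = 0.0235) and with the muscle marker level as a covariate in edgeR (adjusted p = 0.0287), and in none of the other alternatives. Slc47a1, an exporter of organic cations, had 79.8 to 114.6 CPM in labelled pools and 75.5 to 107.4 in controls (log2FC 0.15, edgeR adjusted p = 0.781). Slc35f3, Dhtkd1, Tktl1 and Tktl2 were too low to be tested, with at most 19 counts in a library.

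**Figure D3:**
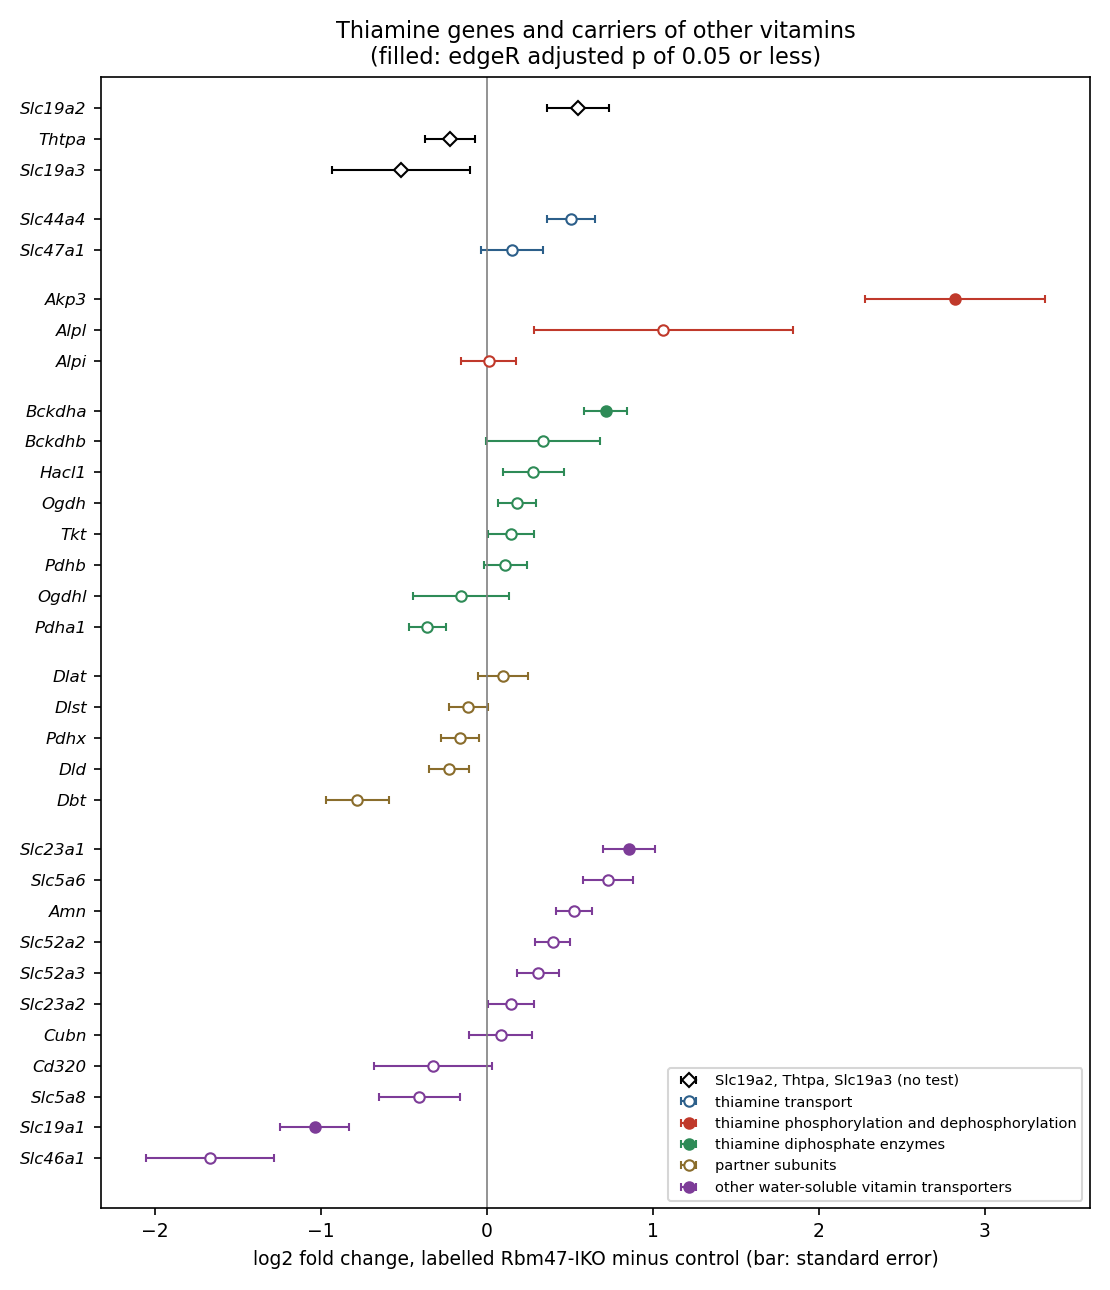
Log2 fold change of the pools labelled Rbm47-IKO over controls (horizontal axis, with standard error from the edgeR fit on 3 pools against 3) for the 18 tested genes of the thiamine lists and every tested carrier or receptor of other water-soluble vitamins, with filled symbols for an edgeR adjusted p of 0.05 or less and open diamonds for the 3 genes that carry no test. Akp3 at 2.82 and Bckdha at 0.72 are the filled thiamine genes, and Slc23a1 at 0.86 and Slc19a1 at -1.04 the filled ones for other vitamins.

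Carriers and receptors of other water-soluble vitamins gave a scale for the thiamine carriers. Of 12 listed, 11 were tested and 2 passed, 1 higher and 1 lower, against 2.70% of all genes, with a median log2FC of 0.145. An unadjusted edgeR p under 0.05 was found for 7 of the 11, against 16.8% of all genes. All labelled pools lay above all controls for 5 and below for 2, against 11.7% and 11.6% of all genes. DESeq2 called 6, which were Slc19a1, Slc23a1, Slc46a1, Slc5a6, Slc52a2 and Amn, against 7.57% of all genes. The reduced folate carrier Slc19a1, which belongs to the same family as the thiamine carriers and is also known to carry thiamine phosphates, was counted 273, 288 and 283 times in labelled pools and 540, 471 and 778 times in controls. It was lower in all 3 labelled pools (log2FC -1.04 ± 0.21 SE; edgeR adjusted p = 0.0483). The vitamin C carrier Slc23a1 rose from 94.0 ± 14.7 to 170.1 ± 23.4 CPM (SD, n = 3 pools each; log2FC 0.86 ± 0.15 SE; edgeR adjusted p = 0.0365). When single pools were left out, Slc19a1 passed 1 time of 6, without control pool 2, and Slc23a1 0 times (edgeR adjusted p 0.0236 to 0.243 and 0.0618 to 0.181). Over all 17 alternatives Slc19a1 passed in 8 and Slc23a1 in 9. Slc19a1 did not pass with RLE factors (edgeR adjusted p = 0.0546), limma-voom (adjusted p = 0.0621) or the Y-linked covariate (edgeR adjusted p = 0.177). Slc19a1, Slc19a2 and Slc19a3 of the one family therefore had log2FC values of -1.04, 0.55 and -0.52. The proton-coupled folate carrier Slc46a1 had 36.9 to 44.8 CPM in labelled pools and 65.7, 102.9 and 212.1 CPM in controls (log2FC -1.67 ± 0.39 SE; edgeR adjusted p = 0.0708). Its log2FC was -1.07 without control pool 3 and -1.98 without control pool 1, and it passed in 4 of 17 alternatives, DESeq2 among them (adjusted p = 0.0198).

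The pools differed in ways other than genotype, and their part in these values was not tested beyond the fits named here. The 6 smooth muscle markers summed to 360.9, 585.7 and 3302 CPM in labelled pools and to 90.7, 2803 and 313.1 CPM in controls. Without the muscle-rich pools (labelled pool 3 and control pool 2) Slc19a2 had a log2FC of 0.488, Slc19a3 of -0.663 and Thtpa of -0.276. The 4 Y-linked genes summed to 53.0 to 143.7 CPM in labelled pools and 87.9 to 220.3 CPM in controls, and these genes are expressed in males alone. With their level as a covariate the values were 0.587 for Slc19a2, -0.501 for Slc19a3 and -0.13 for Thtpa. Markers of the proximal small intestine, 6 of 6 of which were detected in every pool, summed to 5177 to 6457 CPM in labelled pools and 4398 to 5883 in controls. Goblet cell markers summed to 21930 to 25360 CPM in labelled pools against 16450 to 19180 in controls, and enteroendocrine markers to 115.7 to 127.3 against 152.5 to 196.4, without overlap for these sums. Of the single markers, 2 of 5 goblet markers (Clca1 and Fcgbp, the latter most of the sum) had all labelled pools above, and 2 of 6 enteroendocrine markers (Cck and Gip) all below. The 5 distal markers, all detected, summed to 504.9 to 664.5 CPM against 341.6 to 487.3, most of it Slc51a. Of these, 4 had a positive log2FC, the largest that of Fabp6 (1.93, edgeR adjusted p = 0.201), and Slc10a2 had a negative one (-0.47). Of 6 crypt markers Olfm4 (12.3 to 16.8 against 20.7 to 79.7 CPM) and Pcna had all labelled pools below, and the 5 B and plasma cell markers all had a negative log2FC. With edgeR 0 markers of these lists passed. The counts at an unadjusted edgeR p under 0.05 were 2 of 5 goblet, 3 of 6 enteroendocrine and 3 of 5 distal markers. They were 2 of 6 proximal, 2 of 6 crypt and 0 of 5 B and plasma cell markers, against 16.8% of all genes tested. Of 4 colon markers, Car1 was at 0 in every pool and Aqp8 at no more than 0.0792 CPM, whereas Slc26a3 had 205.8 to 221.2 CPM in labelled pools and 155.5 to 201.7 in controls, and B3galt5 had 14.06 to 25.97 and 7.85 to 26.06 CPM. The sum of the colon markers, nearly all of it Slc26a3, was 225.8 to 235.3 CPM against 181.6 to 209.7, without overlap.

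**Figure D4:**
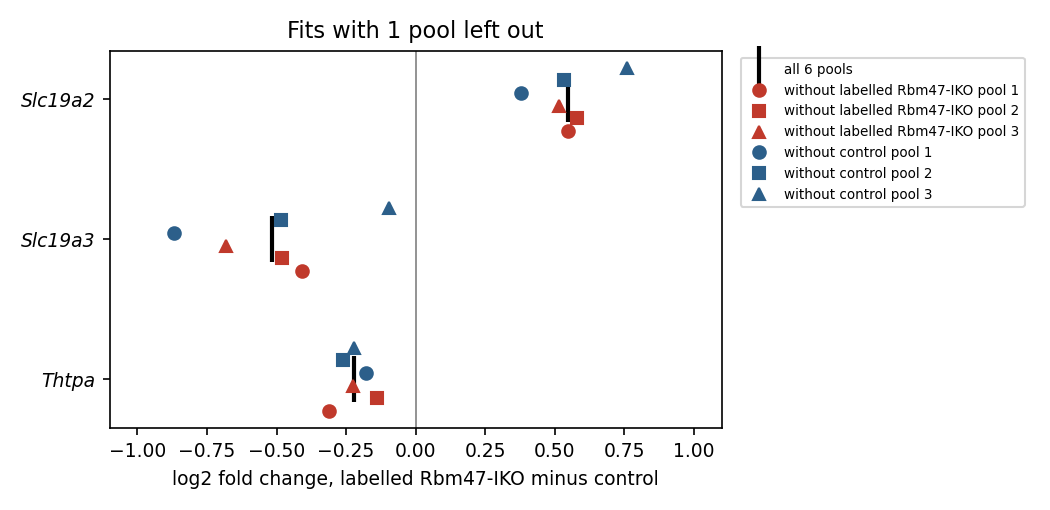
Log2 fold change (horizontal axis) of Slc19a2, Slc19a3 and Thtpa with all 6 pools (black bar) and with each labelled (red) or control (blue) pool left out, marker shape giving the number of the pool left out. Slc19a2 stays between 0.379 and 0.761 and Thtpa between -0.311 and -0.138, whereas Slc19a3 spreads from -0.869 to -0.0959.

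The genes whose profile over the 6 pools was most like that of each gene were found by Pearson's r of log2 CPM, among the 16425 genes tested. For Slc19a2 these were Itpripl1 (r = 0.996), C77080 (0.992) and Igsf9 (0.992). For Slc19a3 they were Bmp1 (r = 0.989), Treh (0.984), which encodes the brush border trehalase, and Ngef (0.984). For Thtpa they were Gm4924 (r = 0.99), D130040H23Rik (0.987) and Hmgb3 (0.987), of which Gm4924 was below 0.5 CPM on average in both genotypes. All values of r rest on the same 6 libraries, and among so many genes some profiles come close to any given one.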

How the data were processed

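Small intestinal mucosal RNA of 3 pools labelled Rbm47-IKO and 3 control pools was sequenced after oligo(dT) selection. Per the submitters' processing notes, reads were aligned to GRCm38 with STAR 2.5.1a and counted with featureCounts 1.4.6-p5 of Subread; strand setting, annotation release and treatment of multi-mapping reads are not given in the sources used here. The authors deposited raw counts per gene, with CPM and RPKM, which recomputation matched within rounding and which were not used further. Symbols came from a table of Ensembl identifiers, which matched 36639 of 38561 genes, and exon overlap and transcripts from the tables and GENCODE.

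Counts were filtered (filterByExpr), normalised (TMM) and compared by quasi-likelihood F-tests in edgeR 4.0.16 in R 4.3.3, with Benjamini-Hochberg adjustment over 16425 genes and a threshold of 0.05, as in the study. Alternatives used DESeq2 1.42.0, limma 3.58.1 (voom), other scalings and filters, covariates and left-out pools. The test was checked on simulated data. Python 3.11.15 drew sequences and figures. The 3 genes and all lists were chosen with earlier results of these data known. Genes named were these 3, Rbm47, the listed thiamine genes, vitamin carriers and promoter factors, genes overlapping the 3, and the 3 genes most alike in profile to each (prior count 2). Some listed genes are not reported here, and the list counts and plots cover the others. Markers of cell types were summed per pool. All 6 libraries differed from each other and were kept. P-values measure the spread between pools of mice, and the pooling hides the spread between animals.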

Additional observations from a re-analysis of the deposited data

How the results depend on the processing

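Slc19a2 kept a positive, and Slc19a3 and Thtpa a negative, log2 fold change in all 17 alternatives (0.379 to 0.761, -0.869 to -0.0959 and -0.311 to -0.13). The count of all genes called (443, with 238 higher and 205 lower) became 1243 (667 and 576) with DESeq2, 716 (385 and 331) with the muscle covariate, 58 (35 and 23) with the Y-linked covariate and 100 (63 and 37) with the replicate block of pool numbers. With 1 pool left out it was 0 to 431 (0 to 220 higher, 0 to 211 lower), with 32 without labelled pool 1, 0 without labelled pool 2 (1729 at an unadjusted edgeR p under 0.05), 119 without labelled pool 3 and 11 without control pool 3. The 2 calls among other thiamine genes became 4 with DESeq2, 1 with limma-voom, 1 without both muscle-rich pools, 0 with the Y-linked covariate, 0 with the replicate block and 0 to 1 with 1 pool left out. The 2 calls among other vitamin carriers became 6 with DESeq2, 1 with RLE factors, 4 without a filter, 1 with limma-voom, 1 without both muscle-rich pools, 4 with the muscle covariate, 0 with the Y-linked covariate, 1 with the replicate block and 0 to 2 with 1 pool left out. With the replicate block Akp3, Bckdha and Slc19a1 no longer passed (edgeR adjusted p = 0.053, 0.0624 and 0.0711). The cause was not tested. The labels do not say whether same-numbered pools were handled together. Such pools correlated at 0.408, -0.00258 and -0.277 in their deviations from the group means. Pools with different numbers ranged from -0.536 to 0.479, and deviations from a mean of 3 pools depend on each other. These correlations therefore cannot decide whether the pools were paired. Log2 fold changes near 0 changed sign: Alpi was at -0.0177 with upper quartile factors, -0.00823 with the muscle covariate, -0.00917 with the Y-linked covariate and -0.129 to 0.18 with 1 pool left out. Without both muscle-rich pools Cubn was at -0.188, Slc47a1 at -0.0785 and Slc23a2 at -0.012, and with 1 pool left out Cubn was at -0.0655 to 0.234 and Dlat at -0.0403 to 0.208. Slc19a3, with 68 to 243 counts per pool, had the largest standard error of the 3 genes.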

Other observations

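In controls, Slc46a1, the proton-coupled folate carrier, and Slc19a3 were spread more widely than in the labelled pools. Both were lowest in control pool 1 and highest in control pool 3, with 65.7, 102.9 and 212.1 CPM for Slc46a1 and 2.0, 4.64 and 6.67 CPM for Slc19a3, and Slc19a2 had the same order there. The labelled pools held 36.9, 38.2 and 44.8 CPM of Slc46a1. This likeness was noticed after the values were seen and was not tested. Biotin and pantothenate enter through Slc5a6, which had 32.8 to 44.6 CPM in labelled pools and 21.4 to 27.2 in controls (log2 fold change, log2FC, 0.73, edgeR adjusted p = 0.0526). The riboflavin carriers Slc52a2 and Slc52a3 were also without overlap and higher in the labelled pools, with log2FC values of 0.40 and 0.31 (edgeR adjusted p = 0.0997 and 0.272). Amn, which with cubilin forms the receptor of the vitamin B12 complex, had a value of 0.53 (edgeR adjusted p = 0.0518), and Cubn one of 0.0827 (edgeR adjusted p = 0.9). DESeq2 called Slc5a6 (adjusted p = 0.00125), Slc52a2 (adjusted p = 0.0183) and Amn (adjusted p = 0.000294), and of 17 alternatives Slc5a6 passed in 3, Slc52a2 in 1, Amn in 5 and Slc52a3 and Cubn in 0.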
